A study of Sus scrofa with 8 samples.

Results

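The somites of pig embryos at embryonic day (E) 21 were compared with those at E18, taking each single-cell library whole. All barcodes with at least 200 detected genes, at most 30000 unique molecular identifiers (UMIs, each standing for 1 captured transcript) and at most 10% of UMIs on the 13 mitochondrial protein-coding genes were kept, and their UMIs were summed per gene. These limits kept 42452 barcodes in 4 of the 8 libraries of the series, which has 82394 such barcodes in all. The series followed somites from E16 to E21 and the myotome at E28, to describe how skeletal muscle forms in pig embryos. At E18 and at E21, 1 library was made from Tibetan pigs (ZZ) and 1 from Duroc x Tibetan pigs (DZ), so that each stage had 2 libraries, named E18-ZZ, E18-DZ, E21-ZZ and E21-DZ. Each library came from a pool of 5 embryos of 1 sow, with no treatment and no genetic change, and the labels do not give the level of the body axis from which the somites were taken. Breed, sow and library cannot be told apart within a stage, and p-values measure the spread between these 4 pools only.

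Somites are paired blocks of mesoderm that form in sequence beside the neural tube. The outer part of a somite, the dermomyotome, gives rise to muscle precursors and dermis, and the inner part, the sclerotome, gives rise to vertebral cartilage, with tendon forming at their border. Muscle precursors express PAX3 and PAX7, commit under the basic helix-loop-helix factors MYF5 and MYOD1, and switch on contractile proteins as they fuse into fibres. Nearby tissues that can enter a somite dissection include the neural tube, lateral plate mesoderm, surface ectoderm, vessels and blood.

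The kept barcodes numbered 10301 and 10347 in the ZZ and DZ libraries of E18, and 11610 and 10194 in those of E21, with 51976249 to 66696834 UMIs per library and a median of 3898 to 5964 UMIs per barcode. Between 20 and 39 barcode sequences were shared by any pair of these libraries. Haemoglobin genes took 1.49% of UMIs in E18-ZZ and 0.452% to 0.865% in the other three. After every barcode was thinned to 2000 UMIs, the embryonic haemoglobin HBE1 was found in 78.6% of barcodes of E18-ZZ and in 21.6% to 22.0% of barcodes of the others. In E18-ZZ it was found in 76.6% to 84.0% of barcodes that carried at least 3 markers of fibroblasts, muscle, cartilage, neurons or epithelium, none of which should make it, so these shares were read as background and not as expression. The E18-ZZ library stands apart in this respect.

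Between E18 and E21, 2078 of the 14781 genes tested rose, or 14.1%, and 1740 fell, or 11.8% (edgeR quasi-likelihood test with breed as a paired term, Benjamini-Hochberg adjusted p below 0.05, 2 libraries per stage). A change of at least 4-fold was seen in 731 of the genes that rose and in 237 of those that fell. The median log2 fold change of all genes tested was 0.01 and the median standard error was 0.19. In summed libraries, fewer cells of a type and less RNA per cell cannot be told apart. Without E18-ZZ 379 genes rose and 179 fell, without E18-DZ 519 and 265, without E21-ZZ 2299 and 2329, and without E21-DZ 2289 and 2095, in fits that leave out the breed term and assume that the lone library varies like the other stage.

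The change was also taken in each breed alone, as ZZ and DZ share no library. Over the 5789 genes with a mean of at least 20 CPM (UMIs per 1000000 UMIs of the library), the ZZ and DZ changes correlated with Pearson's r = 0.827 and Spearman's rho = 0.735 across genes, which are not independent replicates. The sign was the same in 77.9% of these genes. All 3818 called genes had the same sign in both breeds, which the test nearly demands with 2 libraries a stage, whereas 68.8% of the genes that were not called did. Named genes with large changes in each breed are marked in the plot of both changes.

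**Figure D1:**
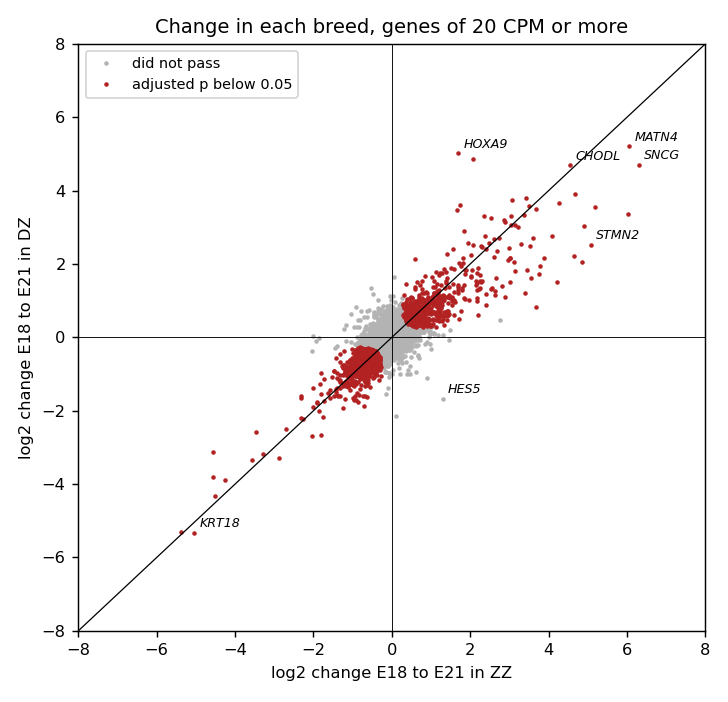
Change from E18 to E21 in ZZ (horizontal axis) against that in DZ (vertical axis), in log2, 1 point for each gene with a mean of at least 20 CPM in the 4 libraries. Red points passed the test with breed as a paired term, and the diagonal marks equal change; STMN2 and SNCG lie below it, HOXA9 lies above it, and HES5 moved opposite ways in the breeds.

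Keratins and other genes of epithelia and lateral plate mesoderm were among the genes with the steepest fall, counting genes with at least 20 CPM in both E18 libraries. KRT8, a keratin of simple epithelia, stood at 1542 CPM in E18-ZZ and 1309 CPM in E18-DZ, and at 75.6 and 65.3 CPM in E21-ZZ and E21-DZ. Its filament partner KRT18 went from 769 and 573 CPM to 25.8 and 13.8 CPM. Both E21 libraries lay far below both E18 libraries for each of these keratins. The log2 fold change was -4.43 ± 0.19 (SE, n = 2 libraries per stage) for KRT8 and -5.22 ± 0.18 for KRT18 (edgeR quasi-likelihood test, Benjamini-Hochberg adjusted p = 0.0002 for each). KRT14, a keratin of basal and surface epithelium, fell by 3.505 on the log2 scale, from 185 and 154 CPM to 17.1 and 14.6 CPM. In the other stages of the series, KRT8 was at 4344 and 3467 CPM at E16 and at 25.1 and 2.91 CPM in the E28 myotome.

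KRT8 was less often detected at E21 in barcodes of several kinds. KRT8 was detected in 66.2% and 60.8% of the 1839 and 2173 E18 barcodes of ZZ and DZ that carried at least 3 fibroblast markers, against 3.72% and 5.17% of the 3813 and 4099 such barcodes at E21. In barcodes carrying at least 3 muscle markers the shares were 66.9% and 49.1% at E18, and 1.55% and 4.16% at E21. In barcodes carrying at least 3 markers of erythroid cells, KRT8 was found in 46.5% and 38.9% at E18 and in 11.8% and 29.3% at E21. The E21 shares lay above those of the fibroblast- and muscle-marker barcodes, so erythroid-marker barcodes cannot serve as a keratin-free background. HBE1 is itself an erythroid marker. Without it, 324 of the 593 erythroid-marker barcodes of E18-ZZ and 154 of the 162 of E18-DZ still carried 3 markers. At E21, 44 of 51 in ZZ and 69 of 75 in DZ did. The E18-ZZ set may thus hold other cells, which bears on each of its shares given here. Neuron-marker barcodes had KRT8 in 27.2% and 15.8% at E18 and in 0.478% and 1.82% at E21, all at 2000 UMIs a barcode. How much of the E18 keratin signal outside epithelium is free RNA was not tested. The UMIs of KRT8 per barcode that detected it went from 5.78 and 6.01 UMIs to 4.197 and 2.266 UMIs.

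Of the 9 epithelial markers tested, 8 fell and none rose, with a median log2 fold change of -3.06 against 0.01 over all genes. EPCAM, the epithelial adhesion molecule, was at 20.1 and 9.02 CPM at E18 and at 2.001 and 0.957 CPM at E21, a log2 fold change of -3.38 ± 0.23. CLDN6, an embryonic tight-junction protein, fell by 3.40 on the log2 scale. GRHL2, a transcription factor of epithelia, was below 1 CPM throughout and did not pass. Without E18-ZZ 4 epithelial markers fell, and without E18-DZ 5. Barcodes carrying at least 3 epithelial markers made up 4.53% and 3.06% of the E18 barcodes in ZZ and DZ, and 0.272% and 0.112% of the E21 barcodes. Of these E18 barcodes, 31.5% in ZZ and 56.0% in DZ also carried at least 3 fibroblast markers, so the share does not count epithelial cells alone.

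Lateral plate and coelomic mesoderm, which forms body wall, gut wall and heart, was represented by 9 tested markers, of which 6 fell and none rose, with a median log2 fold change of -2.13. HAND1, a transcription factor of lateral plate and heart, went from 68.2 and 76.6 CPM to 1.33 and 1.46 CPM, and had no UMI at E28. HAND1 fell by 5.78 ± 0.16 on the log2 scale (edgeR quasi-likelihood test, Benjamini-Hochberg adjusted p = 0.00013), and GATA6, which shares its tissues, fell as well, from 20.5 CPM or less to 2.96 CPM or less. GATA4, of the same family, had 1116 and 811 UMIs in the E18 libraries, 0 in E21-ZZ and 18 in E21-DZ. WT1, a gene of coelomic epithelium and kidney, was much higher in E18-ZZ, at 50.1 CPM, than in E18-DZ, at 17.4 CPM, and was at 5.33 and 6.77 CPM at E21. Its log2 fold change of -2.38 fell to -1.59 without E18-ZZ and then missed the threshold (adjusted p = 0.051). FOXF1, TBX5 and OSR1, also of this tissue, did not pass. Barcodes carrying at least 3 lateral plate and coelomic markers were 0.736% and 0.775% at E18 and 0% in both E21 libraries. Without E18-ZZ 3 of the 9 markers fell, and without E18-DZ 4.

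Cardiac markers, which share GATA4 and TBX5 with the lateral plate list, included some of the same falls. NKX2-5, the homeodomain factor of the early heart, had 439 and 272 UMIs in the E18 libraries and no UMI in either E21 library, which makes it at least 198-fold lower when the floor of 3 counts is taken over both E21 libraries together. MYH7, the slow and cardiac myosin heavy chain, was at 48.9 and 28.3 CPM and then at 16.3 and 12.7 CPM, and fell by 1.46 on the log2 scale, with a log2 value of -1.05 and an adjusted p of 0.069 without E18-ZZ. Of 8 cardiac markers tested, 4 fell and none rose. MYL4 and TNNI3, atrial and cardiac contractile proteins, did not pass.

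Endothelial markers fell in part, and liver and yolk sac genes moved in both directions. Of 10 endothelial markers tested, 7 fell and none rose, with a median log2 fold change of -1.17, among them TEK, the angiopoietin receptor, at 13.6 and 23.9 CPM and then 5.08 and 2.40 CPM. Without E18-ZZ or without E18-DZ, PLVAP, a protein of vessel wall pores, missed the threshold (adjusted p = 0.083 and 0.097). Without E18-ZZ 2 endothelial markers fell and without E18-DZ 1, and TEK was called in every fit that left out a library. With a limit of 5% of mitochondrial UMIs 4 fell and 1 rose, which was CLDN5, a tight junction protein, named here after its value was seen. Barcodes with at least 3 endothelial markers were 2.43% and 3.15% at E18 and 0.999% and 0.466% at E21, and at the 5% limit 0.154% and 0.546% and then 0.212% and 0.124%, where the ranges of the stages overlap. Of 7 hepatic and yolk sac genes tested, 4 fell (AFP, TTR, AHSG and APOB) and 2 rose (ALB and APOA1), and their summed level was 87.4 and 98.9 CPM at E18 and 214.3 and 119.5 CPM at E21, most of it APOA1. AFP, TTR and AHSG, secreted proteins of liver and yolk sac, had at most 2 UMIs in each E21 library and 67 to 331 UMIs in each E18 library. Apolipoprotein APOE fell by 4.13 ± 0.16 on the log2 scale, from 213 and 242 CPM to 12.1 and 15.7 CPM, whereas ALB, albumin, rose by 1.82 from 0.450 and 0.773 CPM to 3.33 and 1.501 CPM and APOA1 rose by 0.84. Neither rise passed when either E18 library was left out, and with a limit of 5% of mitochondrial UMIs the log2 fold change of APOA1 was -0.11.

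Of 10 erythroid markers tested, 3 fell and none rose, and without E21-DZ 8 fell. HBB, an adult-type beta globin, went from 186 and 125 CPM to 41.6 and 40.8 CPM, a log2 fold change of -1.98. HBE1, at 9114 and 5442 CPM at E18 and at 2720 and 5059 CPM at E21, did not pass (adjusted p = 0.15). Leaving out barcodes with over 2% of UMIs on haemoglobin changed the counts over all genes to 2092 higher and 1765 lower.

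All 9 neuronal markers tested rose, with a median log2 fold change of 3.12, and the summed level of the whole list, 10 genes named in the files, went from 191.5 and 335.5 CPM in E18-ZZ and E18-DZ to 4103 and 1435 CPM in E21-ZZ and E21-DZ. STMN2, a microtubule regulator of growing axons, was at 42.0 and 115 CPM and then at 1633 and 662 CPM. Both E21 libraries exceeded both E18 libraries, and E21-ZZ stood well above E21-DZ. The log2 fold change of STMN2 was 3.81 ± 0.61 (edgeR quasi-likelihood test, Benjamini-Hochberg adjusted p = 0.0081). POU4F1, the sensory neuron factor of the list, was almost undetected in all 4 libraries and was not tested. Without E18-ZZ 5 of the 9 rose, and without E18-DZ 7.

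Of the 12 genes with the largest rise among those with at least 20 CPM in both E21 libraries, SNCG, INA, STMN2, STMN3 and STMN4 are known from neurons. SNCG, gamma-synuclein, was at 1.14 and 1.88 CPM and then at 144 and 61.4 CPM, and INA, the neurofilament protein alpha-internexin, at 3.60 and 9.46 CPM and then at 303 and 102 CPM. Each of these genes passed in every fit that left out 1 library. TUBB3, neuronal tubulin, went from 34.2 and 84.3 CPM to 1145 and 355 CPM, a log2 fold change of 3.48, and without E18-ZZ it was 3.04 with an adjusted p of 0.056. At E28, a dissection of the myotome, STMN2 was at 427 and 782 CPM and TUBB3 at 31.9 and 179 CPM.

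Barcodes carrying at least 3 neuronal markers were 0.917% and 1.97% of the E18 barcodes in ZZ and DZ, and 19.01% and 8.90% of the E21 barcodes. STMN2 was found in 22.1% and 12.7% of the E21 barcodes that carried fibroblast markers and in 10.7% and 6.36% of those that carried cartilage markers, which should not make it, so that the share of all E21 barcodes with a STMN2 UMI, 32.9% and 18.9%, includes background. Of 6 tested markers of neural tube progenitors, 1 rose, 3 fell and 2 did not pass, with a median log2 fold change of -0.80. The 1 that rose was FABP7, a lipid carrier of radial glia, by 3.097 on the log2 scale. Among those that fell was PAX6, a patterning factor of the neural tube, from 29.1 and 36.7 CPM to 20.01 and 9.62 CPM. The call of PAX6 was lost without E18-ZZ (adjusted p = 0.09) and without E18-DZ (adjusted p = 0.14). Of 8 tested genes of neural crest and glia, 1 rose and 1 fell, which is near the 14.1% and 11.8% of all genes tested that rose and fell, and SOX10, the crest and glial factor, was at 13.2 and 28.0 CPM at E18 and at 28.2 and 12.7 CPM at E21.

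**Figure D2:**
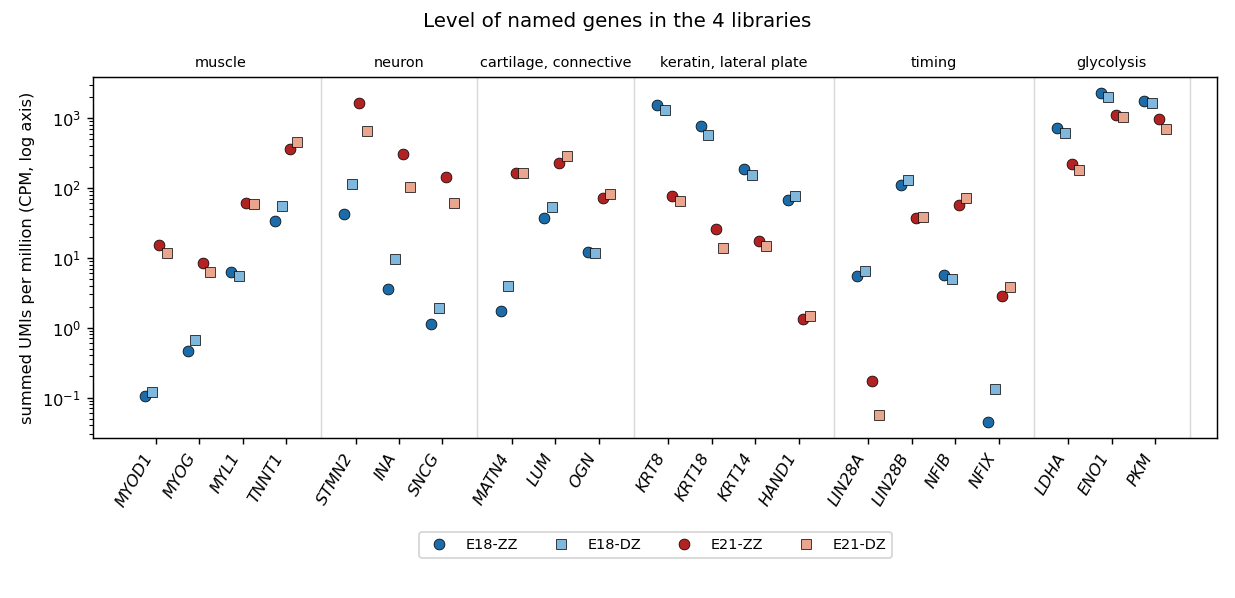
Summed UMIs of each gene (CPM, log axis) of 21 named genes in the 4 libraries, grouped by the tissue or process each gene is known from. Circles are ZZ and squares DZ; the E21 values lie above the E18 values for muscle, neuron, cartilage and connective tissue genes, and below them for keratins, HAND1, LIN28A, LIN28B and glycolytic enzymes, with NFIB and NFIX above.

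Most genes of the myogenic programme rose. Of 15 myogenic markers tested, 13 rose and 1 fell, and of 43 tested genes of the longer muscle differentiation list, which contains most of them, 31 rose and 2 fell, with median log2 fold changes of 1.99 and 1.38. Without E18-ZZ 10 of the 15 and 18 of the 43 rose, and without E18-DZ 11 and 22. MYOD1, the commitment factor of skeletal muscle, stood at 0.105 and 0.118 CPM in the E18 libraries and at 15.3 and 11.7 CPM in the E21 libraries. Both E21 libraries were far above both E18 libraries, and the rise was 6.80 ± 0.32 on the log2 scale (edgeR quasi-likelihood test, Benjamini-Hochberg adjusted p = 0.00022). Among E21 barcodes carrying at least 3 other muscle markers, MYOD1 was detected in 21.7% in ZZ and 15.7% in DZ, against 0.787% and 0.415% of those carrying fibroblast markers. In the E28 myotome MYOD1 was at 61.2 and 86.5 CPM.

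MYF5, the first of these factors to be expressed, was already present at E18, at 11.3 and 10.2 CPM, and rose to 39.8 and 38.5 CPM, a log2 fold change of 1.77 ± 0.14. MYOG, which drives terminal differentiation, went from 0.465 and 0.655 CPM to 8.52 and 6.25 CPM. PAX7, a marker of lasting muscle precursors, rose by 1.63 ± 0.19 on the log2 scale, from 4.98 and 7.73 CPM to 20.8 and 20.1 CPM, and missed the threshold without E18-ZZ (log2 fold change 1.33, adjusted p = 0.052). PAX3, which marks the dermomyotome, was at 28.3 and 31.9 CPM at E18 and at 36.4 and 21.9 CPM at E21. The PAX3 ranges overlapped and it did not pass (log2 fold change -0.18 ± 0.19, adjusted p = 0.53), and the difference between PAX7 and PAX3 was not tested. Barcodes carrying at least 3 dermomyotome markers, a list that includes PAX3 and PRTG, were 0.996% and 1.13% at E18 and 0.48% and 0.43% at E21. Among the 8 tested genes of that list, 2 rose, 1 fell and 5 did not pass, with a median log2 fold change of 0.38. Over all genes tested, 14.1% rose and 11.8% fell. The 1 that fell was PRTG, so the lower share does not stand for a fall of most of these markers.

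Contractile and fusion genes were already detected at E18, some at higher levels than the factors. MYL1, an essential light chain of fast muscle, went from 6.21 and 5.54 CPM to 61.7 and 58.8 CPM, and TNNT1, slow troponin T, from 34.1 and 55.7 CPM to 366 and 452 CPM. MYH8, perinatal myosin, rose by 6.01 ± 0.30 and MYH3, embryonic myosin, by 3.07 ± 0.26 on the log2 scale. MYMK, the membrane protein required for myoblast fusion, went from 9.01 and 12.0 CPM to 47.9 and 41.8 CPM. At 2000 UMIs a barcode, MYL1 was detected in 10.0% and 15.7% of the barcodes that carried muscle markers at E18 and in 22.3% and 22.6% at E21. Among fibroblast-marker barcodes, which should not make it, the share was 1.90% and 0.966% at E18 and 0.734% and 0.854% at E21. In E18-ZZ 35 fibroblast-marker and 18 muscle-marker barcodes had a MYL1 UMI, so that its share of all E18 barcodes, 0.826% and 0.656%, includes background. DES, the intermediate filament desmin, fell by 0.59 on the log2 scale and TNNT2, cardiac troponin T, did not pass, at 66.7 and 35.6 CPM and then 27.3 and 29.2 CPM. The call of DES was lost without E18-ZZ (adjusted p = 0.11) and without E18-DZ (adjusted p = 0.2).

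MSTN, the secreted inhibitor of muscle growth, was close to undetected before E21. MSTN was at 0.075 and 0.0504 CPM at E18 and at 12.2 and 13.9 CPM at E21, a rise of 7.54 ± 0.37 on the log2 scale. FST, follistatin, which binds MSTN and activins, fell by 1.47 ± 0.17, from 34.7 and 43.9 CPM to 17.0 and 13.2 CPM, and WFIKKN1, another protein that binds MSTN, fell by 2.83 ± 0.21. In the E28 myotome FST was higher again, at 51.0 and 79.7 CPM. PGAM2, the muscle form of phosphoglycerate mutase, rose by 4.21 ± 0.22. These 4 genes passed in every fit that left out a library.

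The E-box CAGCTG, a sequence that MYOD1 and MYOG are known to bind and that reads the same on both strands, was looked for in the 250 bases before the start of each gene. The sequences and gene starts were RefSeq's, on the pig build that the files use (Sscrofa11.1). An annotated start may lie downstream of where transcription begins, as at a start codon. Such a stretch would hold transcribed bases, and this was not tested for MYOD1 or any other gene. It was found in 7 of the 29 muscle genes that rose and had such a sequence, or 24.1%, against 13.6% of all 19519 sequences and 12.5% of those of genes tested. A pattern with the outer bases of the MEF2 motif and any bases at its centre, likewise palindromic, was also looked for. It was in 3.45% of these muscle genes and 2.32% of all sequences. The pattern is looser than the MEF2 motif, so these shares do not give how often that motif itself occurs. A match is a description and not a site of binding. The upstream sequences of MYOD1 (chr2:41424237-41424486, minus strand), MYMK (chr1:273111722-273111971, minus strand) and CHRNA1 (chr15:80692257-80692506, minus strand) are given 5′ to 3′ with the E-box in capitals, since these genes stand for commitment, fusion and the acetylcholine receptor. All 3 genes rose and passed in every fit that left out a library, and MYMK holds 2 such E-boxes.
MYOD1: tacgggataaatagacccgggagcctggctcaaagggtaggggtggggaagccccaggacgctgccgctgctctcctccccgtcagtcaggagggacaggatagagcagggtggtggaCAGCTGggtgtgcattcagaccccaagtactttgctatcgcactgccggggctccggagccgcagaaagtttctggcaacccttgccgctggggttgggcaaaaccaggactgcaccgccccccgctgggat
MYMK: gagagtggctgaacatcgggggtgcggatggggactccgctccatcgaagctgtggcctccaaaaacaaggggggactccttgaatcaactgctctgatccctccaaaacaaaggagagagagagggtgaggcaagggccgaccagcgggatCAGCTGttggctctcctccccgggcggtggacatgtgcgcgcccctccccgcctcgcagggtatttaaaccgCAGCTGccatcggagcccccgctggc
CHRNA1: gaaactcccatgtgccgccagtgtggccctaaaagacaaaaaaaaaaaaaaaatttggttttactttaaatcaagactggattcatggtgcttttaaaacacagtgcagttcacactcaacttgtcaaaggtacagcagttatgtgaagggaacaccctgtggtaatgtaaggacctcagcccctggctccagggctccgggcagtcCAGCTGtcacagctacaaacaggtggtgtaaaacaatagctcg

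MYLPF, the regulatory light chain of fast muscle, was at 37.6 and 41.3 CPM at E18 and at 318 and 366 CPM at E21, and CHRNA1, the alpha subunit of the receptor, at 1.60 and 3.54 CPM and then at 14.1 and 12.0 CPM. The muscle shares of barcodes moved alike in both breeds. Barcodes carrying at least 3 myogenic markers were 2.05% and 2.33% at E18 and 6.45% and 6.82% at E21. At E18, 28.2% of these barcodes in ZZ and 10.7% in DZ also carried at least 3 cardiac markers, against 0% and 0.297% at E21, so the E18 shares include barcodes that also carry heart genes.

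Most cartilage and tendon markers rose. MATN4, a matrix protein of cartilage, was at 1.71 and 3.91 CPM at E18 and at 165 and 162 CPM at E21, a rise of 5.86 ± 0.28 on the log2 scale (edgeR quasi-likelihood test, Benjamini-Hochberg adjusted p = 0.00022). MATN4 was found in 62.8% and 63.5% of the E21 barcodes carrying at least 3 other cartilage markers and in 1.61% and 0.606% of such barcodes at E18. COL2A1, the major collagen of cartilage, had 9937 and 10936 UMIs at E18 and 12920 and 15554 UMIs at E21 and rose by 0.61 ± 0.13 on the log2 scale, and its call was lost without E18-ZZ, E18-DZ or E21-DZ (adjusted p = 0.33, 0.14 and 0.05). ACAN, aggrecan, rose by 2.47 ± 0.22 on the log2 scale, whereas HAPLN1, the link protein that ties it to hyaluronan, fell by 2.42 ± 0.19, from 47.4 and 67.7 CPM to 12.7 and 10.1 CPM. In all, 8 of the 10 chondrogenic markers tested rose and 1 fell, but 2 rose without E18-ZZ, 3 without E18-DZ and 5 without E21-DZ. The share of barcodes carrying at least 3 of them went from 1.48% and 2.02% to 9.58% and 11.6%. MATN1, another matrix protein of cartilage, was near 0 in all 4 libraries and was not tested.

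Of 6 tested sclerotome markers, 2 rose, 1 fell and 3 did not pass, beside 14.1% of all genes tested that rose and 11.8% that fell. SOX9 and PAX9 were those that rose, and neither call passed in every fit that left out a library. UNCX, also given here, was counted with the dermomyotome markers. SOX9, which drives cartilage formation, rose from 29.2 and 36.7 CPM to 90.7 and 71.3 CPM, a log2 fold change of 1.21 ± 0.15, with an adjusted p of 0.054 without E18-ZZ. PAX9 rose by 1.29 ± 0.21, and its partner PAX1 did not pass, at 40.3 and 38.9 CPM and then 90.3 and 42.4 CPM, where E21-ZZ stood above the other three libraries. The call of PAX9 was lost without E18-ZZ (adjusted p = 0.098) and without E18-DZ (adjusted p = 0.066). UNCX, a factor of the posterior part of each somite, rose by 1.06 ± 0.17, with an adjusted p of 0.084 without E18-DZ. NKX3-2 had under 0.1 CPM in every library and was not tested.

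All 5 tendon markers tested rose, with a median log2 fold change of 3.60, and 3 rose without either E18 library. MKX, a tendon transcription factor, was at 0.390 and 0.924 CPM and then at 7.54 and 8.31 CPM, and TNMD, tenomodulin, at 1.42 and 2.89 CPM and then at 15.3 and 13.5 CPM. SCX, the earliest tendon factor, was below 0.4 CPM in all libraries. THBS4, a matrix protein of tendon, lost its call without E18-ZZ (adjusted p = 0.25) or E18-DZ (adjusted p = 0.17).

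Connective tissue genes moved in both directions. Of 10 fibroblast markers tested, 3 rose and 1 fell, and of 20 collagens 7 rose and 3 fell. Of all genes tested 14.1% rose and 11.8% fell, so the falls in both lists are near the share over all genes. Without E18-ZZ 1 fibroblast marker rose and none fell, and with a limit of 5% of mitochondrial UMIs 2 rose and 3 fell. Of the 10 collagen calls, 2 passed in every fit that left out a library, and at the 5% limit 3 collagens rose and 5 fell. COL3A1, a fibrillar collagen of loose tissue, did not pass, at 789 and 884 CPM and then 819 and 950 CPM. LUM, the proteoglycan lumican, rose by 2.42 ± 0.13 on the log2 scale, from 37.6 and 53.1 CPM to 229 and 283 CPM, and OGN, osteoglycin, by 2.61 ± 0.15. COL12A1, which coats collagen fibrils, rose from 8.05 and 11.14 CPM to 47.5 and 63.6 CPM, and FAP, a serine protease of activated fibroblasts, from 0.930 and 0.890 CPM to 26.3 and 36.5 CPM. COL1A1 fell by 0.86, with the call lost without E18-DZ (adjusted p = 0.33), without E18-ZZ (adjusted p = 0.062) and without E21-ZZ (adjusted p = 0.12). TNC, tenascin C, fell by 1.72 ± 0.18, from 70.0 and 74.6 CPM to 19.2 and 28.3 CPM. The share of barcodes with at least 3 fibroblast markers was 20.8% and 23.4% at E18 and 34.6% and 41.6% at E21. With the limit of 5% of mitochondrial UMIs it was 24.4% and 28.1% at E18 and 28.7% and 38.5% at E21.

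**Figure D3:**
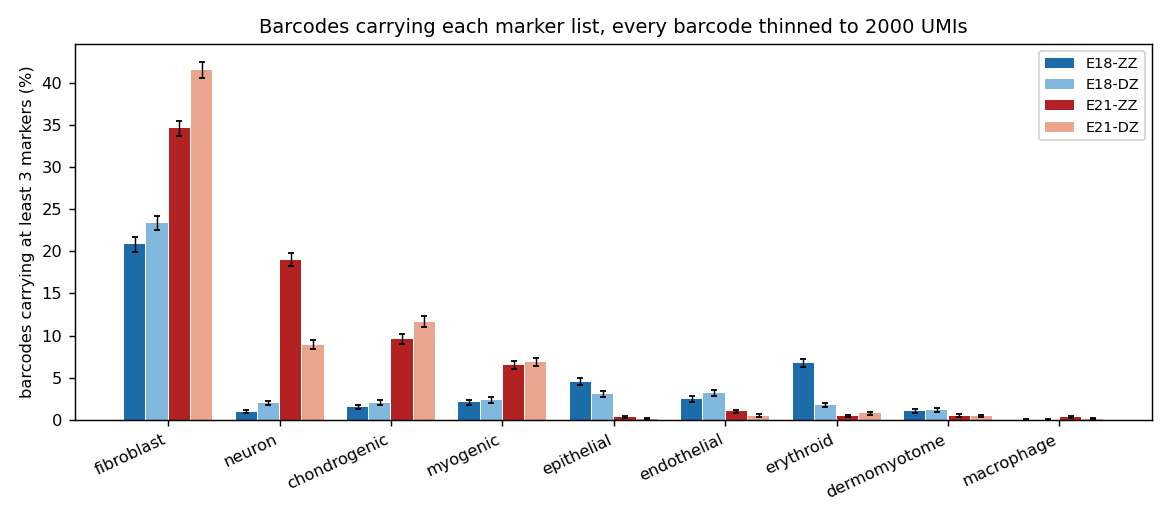
Share of barcodes (%) carrying at least 3 different markers of each list in the 4 libraries, every barcode thinned to 2000 UMIs; error bars are exact 95% binomial intervals, which cover counting error only. Fibroblast, neuron, chondrogenic and myogenic shares are higher in both E21 libraries, and epithelial, endothelial and erythroid shares are lower in both, with 6.71% erythroid in E18-ZZ against 1.74% in E18-DZ.

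HOX genes, which give cells their position along the body axis and are switched on in order from head to tail, were counted by paralogue group, and the difference between the groups was not tested. Of the 10 tested genes of groups 1 to 4, 1 rose and 1 fell, with a median log2 fold change of -0.03. These counts are near the 14.1% and 11.8% of all genes tested that rose and fell. Of the 10 of groups 5 to 8, 8 rose and none fell, with a median of 1.23. Of the 8 tested in groups 9 to 13, 3 rose and none fell, with a median of 1.30, and 8 further genes of these groups had too few UMIs to test. In groups 5 to 8, 5 rose without E18-ZZ, 4 without E18-DZ and 5 without E21-ZZ, where 1 fell, and in groups 9 to 13 2 rose without E18-ZZ or E18-DZ, 5 without E21-ZZ and 1 without E21-DZ. As the labels do not give the axial level of the somites, stage and axial level cannot be told apart here.

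HOXA5 was at 66.8 and 40.8 CPM in E18-ZZ and E18-DZ and at 323 and 234 CPM in E21-ZZ and E21-DZ, a rise of 2.31 ± 0.16 on the log2 scale (edgeR quasi-likelihood test, Benjamini-Hochberg adjusted p = 0.00065). HOXC8 was at 46.8 and 14.0 CPM and then at 180 and 176 CPM, a rise of 2.70 ± 0.42. The E18-DZ library was the lowest for most genes of groups 5 to 9, with HOXC9 at 18.1 CPM in E18-ZZ and 3.07 CPM in E18-DZ, and at 87.4 and 103 CPM at E21. The log2 change of HOXA9 was 1.69 in ZZ alone and 5.01 in DZ alone, and its call was lost without E21-ZZ or E21-DZ (adjusted p = 0.084 and 0.089). HOXB9 rose by 0.79 ± 0.15 and passed in none of the 4 fits that left out a library. HOXC4 rose from 36.6 and 27.9 CPM to 99.5 and 53.4 CPM, with its call lost without E18-ZZ (adjusted p = 0.086) or E18-DZ (adjusted p = 0.17).

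HOXA5 was detected in barcodes of several kinds. Its share went from 13.6% and 6.49% to 40.2% and 34.0% among fibroblast-marker barcodes, from 12.3% and 17.5% to 54.5% and 49.4% among neuron-marker barcodes, and from 5.34% and 5.85% to 38.9% and 38.5% among cartilage-marker barcodes. In erythroid-marker barcodes HOXA5 was found in 7.76% and 1.23% at E18 and 7.84% and 2.67% at E21. Erythroid cells should lack it, but the E18-ZZ set may hold other cells, as only 324 of its 593 barcodes carried 3 markers without HBE1. HOXA10 was at 2.05 and 0.0336 CPM at E18 and at 2.83 and 24.8 CPM at E21 and did not pass, and HOXA11, HOXD11, HOXA13 and HOXD13 were each above 0.4 CPM in E21-DZ alone of the 4 libraries. At E16, HOXA10 was at 45.5 and 40.5 CPM and HOXA13 at 31.5 and 23.3 CPM.

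**Figure D4:**
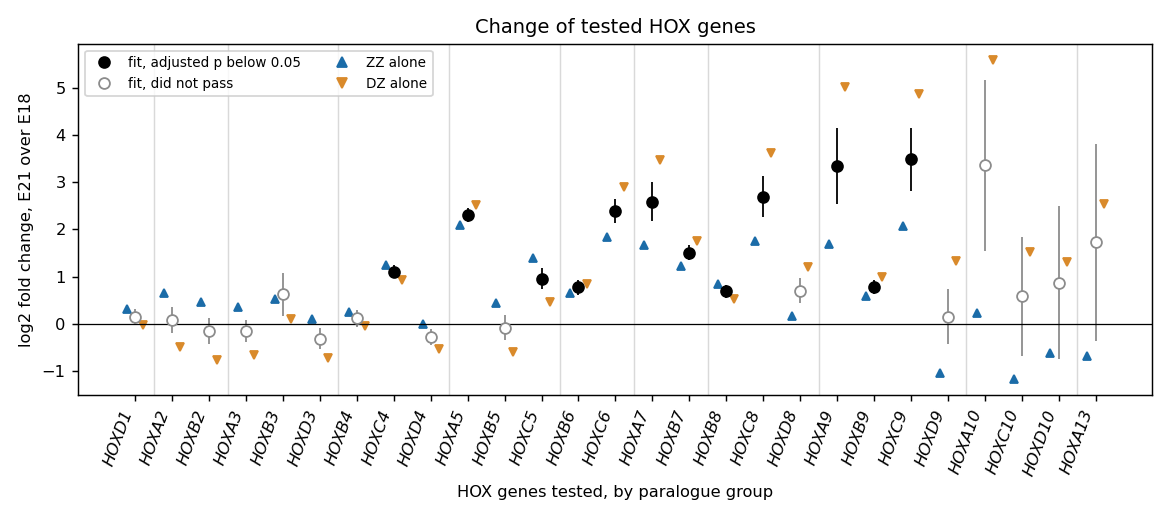
Log2 fold change, E21 over E18, of 27 tested HOX genes ordered by paralogue group; round points with bars are the fit and its standard error, filled where the adjusted p was below 0.05, and triangles are the change in ZZ and in DZ alone. Filled points above 0 are concentrated from group 5 to group 9, and the ZZ and DZ changes lie far apart for HOXA9, HOXC9 and HOXA10.

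Genes known to time development in many tissues moved in both directions. LIN28A and LIN28B, which block maturation of the let-7 microRNA and mark early embryonic cells, both fell. LIN28B was at 110 and 128 CPM at E18 and at 37.1 and 38.2 CPM at E21, a log2 fold change of -1.75 ± 0.12, and LIN28A was at 5.50 and 6.43 CPM and then at 0.173 and 0.0563 CPM. HMGA1, a chromatin protein of immature cells, went from 1397 and 1336 CPM to 719 and 586 CPM, with an adjusted p of 0.057 without E18-ZZ. NR6A1, a nuclear receptor linked to the number of trunk vertebrae in pigs, fell by 2.29 ± 0.23, from 34.5 and 45.1 CPM to 10.8 and 6.72 CPM.

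Nuclear factor I genes, which are known to promote late differentiation, rose. NFIA went from 3.51 and 3.19 CPM to 46.2 and 36.8 CPM, NFIB from 5.65 and 4.97 CPM to 57.5 and 72.8 CPM, and NFIX from 0.045 and 0.134 CPM to 2.79 and 3.87 CPM. Their log2 fold changes were 3.53 ± 0.15, 3.52 ± 0.20 and 5.17 ± 0.47. Both E28 libraries had higher levels of each than either E21 library, with NFIB at 171 and 248 CPM. Of the 14 timing genes tested, 4 rose and 7 fell, and 3 fell without E18-ZZ and 4 without E18-DZ. LIN28B was detected in 15.6% and 17.3% of fibroblast-marker barcodes at E18 and in 6.90% and 7.05% at E21, and NFIB in 1.79% and 1.43% and then 14.0% and 16.4%. Among erythroid-marker barcodes LIN28B was detected in 9.27% and 3.09% at E18 and in 1.96% and 4.00% at E21, and NFIB in 0.506% and 0% and then 0% and 1.33%, and the part of free RNA in the LIN28B shares was not tested.

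PRTG, protogenin, a receptor of early mesoderm and neural tube, fell by 3.11 ± 0.16 on the log2 scale, from 146 and 212 CPM to 22.1 and 21.3 CPM, and passed in every fit that left out a library. PRTG was detected in 30.9% and 30.6% of neuron-marker barcodes at E18 and in 3.20% and 5.69% at E21, and in 32.1% and 37.8% and then 5.31% and 4.01% of cartilage-marker barcodes. Among erythroid-marker barcodes the share was 12.3% and 3.09% at E18 and 1.96% and 0% at E21, and the part of free RNA was not tested. The somite factors TBX6 and MESP2, which act as segments form, did not pass, with MESP2 at 8.43 and 8.20 CPM and then 7.54 and 4.58 CPM. Of 8 tested presomitic and early paraxial markers, 1 rose, 2 fell and 5 did not pass, beside 14.1% of all genes tested that rose and 11.8% that fell. The 1 that rose was DLL3, a Notch pathway ligand of segmentation and of neurons, by 2.32 ± 0.25, from 2.79 and 3.69 CPM to 20.6 and 14.2 CPM. LFNG was among the 2 that fell, but in a fit on fibroblast-marker barcodes alone its log2 fold change was 0.113 and did not pass.

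Most of the tested genes of DNA replication and mitosis fell. Of 24 DNA replication genes tested, 19 fell and none rose, with a median log2 fold change of -0.63, and of 21 mitosis genes, 14 fell and none rose, with a median of -0.61. MCM2, a subunit of the replicative helicase, was at 117 and 115 CPM and then at 64.3 and 56.6 CPM, a log2 fold change of -1.03 ± 0.12 (edgeR quasi-likelihood test, Benjamini-Hochberg adjusted p = 0.0029). PLK1, a mitotic kinase, was at 150 and 144 CPM and then at 85.7 and 63.2 CPM. Of 9 tested D cyclins and cell cycle inhibitors, 2 rose, 1 fell and 6 did not pass, beside 14.1% of all genes tested that rose and 11.8% that fell. CDKN1A and CDKN1B, inhibitors of the cell cycle, rose by 1.60 ± 0.23 and 0.90 ± 0.15 on the log2 scale. Without E18-ZZ 1 replication gene and no mitosis gene passed (the adjusted p of PLK1 was then 0.053), without E18-DZ 5 and 2 did, and CDKN1A and CDKN1B lost their calls without E18-ZZ (adjusted p = 0.096 and 0.13) or E18-DZ (adjusted p = 0.058 and 0.083).

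Most of the tested genes of glycolysis fell. Of 20, 16 fell and 1 rose, and 4 of these 17 calls passed in every fit that left out a library. The median log2 fold change was -0.99 against 0.01 over all genes. LDHA, which turns pyruvate into lactate, went from 719 and 609 CPM to 218 and 178 CPM, a log2 fold change of -1.84 ± 0.15 (edgeR quasi-likelihood test, Benjamini-Hochberg adjusted p = 0.0012). SLC16A3, which exports lactate, fell by 1.96 ± 0.13 and HK2, the hexokinase of fast-growing cells, by 1.45 ± 0.12. The highly expressed ENO1 and PKM, at 2263 and 1974 CPM and at 1770 and 1661 CPM at E18, were at 1118 and 1020 CPM and at 975 and 692 CPM at E21. Without E18-ZZ the values of ENO1 and PKM were -0.97 and -1.08 with adjusted p of 0.089 and 0.08, and 4 glycolytic genes fell, against 9 without E18-DZ. ENO2, the neuronal enolase, rose, from 8.04 and 8.85 CPM to 59.6 and 20.4 CPM, and lost its call without E18-ZZ (adjusted p = 0.1) or E18-DZ (adjusted p = 0.081).

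LDHA was detected in 72.8% and 72.7% of neuron-marker barcodes at E18 and in 19.7% and 18.6% at E21, in 63.0% and 60.8% and then 26.7% and 22.0% of fibroblast-marker barcodes, and in 58.8% and 46.3% and then 31.1% and 25.4% of cartilage-marker barcodes. Among barcodes with erythroid markers LDHA was detected in 43.3% and 25.3% at E18 and in 5.88% and 18.7% at E21, and the part of free RNA in these shares was not tested. In a fit on barcodes that carried the fibroblast list and none of the lists of tissues outside the somite, chosen after the data were seen, 15 of 19 glycolytic genes tested fell and none rose. Over all 11326 genes tested in that fit, 1098 fell and 1133 rose. Of the hypoxia response list, 4 of 16 tested genes fell and 12 did not pass, among them VEGFA, HIF1A and CA9. None of the 4 calls passed in every fit that left out a library.

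The core ACGTG, the letters at the centre of the hypoxia-inducible factor site, was looked for on both strands in the same 250 bases. It was present in 6 of the 15 glycolytic genes that fell and had a sequence, or 40.0%, against 18.7% of all sequences and 20.5% of those of genes tested. ACGTG on one strand overlaps its reverse complement CACGT in CACGTG, the E-box of MYC-type factors, so such a stretch counts for both strands. The upstream sequences of ENO1 (chr6:69401665-69401914, minus strand), PKM (chr7:60971557-60971806, plus strand) and PGK1 (chrX:62187222-62187471, plus strand) are given 5′ to 3′ with the matches in capitals, as examples of highly expressed enzymes that fell.
ENO1: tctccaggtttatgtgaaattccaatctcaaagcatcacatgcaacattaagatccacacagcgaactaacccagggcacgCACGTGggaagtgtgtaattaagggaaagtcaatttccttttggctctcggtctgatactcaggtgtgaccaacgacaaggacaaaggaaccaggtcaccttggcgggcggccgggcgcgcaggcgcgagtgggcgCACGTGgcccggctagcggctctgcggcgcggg
PKM: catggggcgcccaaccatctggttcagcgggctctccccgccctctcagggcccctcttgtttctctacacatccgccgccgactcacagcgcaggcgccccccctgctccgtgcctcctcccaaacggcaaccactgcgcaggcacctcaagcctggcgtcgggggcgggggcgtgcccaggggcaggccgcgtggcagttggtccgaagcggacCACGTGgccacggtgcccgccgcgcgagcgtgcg
PGK1: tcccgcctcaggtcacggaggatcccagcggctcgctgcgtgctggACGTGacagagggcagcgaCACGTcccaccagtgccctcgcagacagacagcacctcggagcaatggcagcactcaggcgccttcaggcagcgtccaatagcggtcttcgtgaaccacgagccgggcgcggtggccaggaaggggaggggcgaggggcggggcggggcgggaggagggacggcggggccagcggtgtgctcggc

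PGK1, phosphoglycerate kinase, was at 187 and 181 CPM at E18 and at 113 and 92.5 CPM at E21, a log2 fold change of -0.94 ± 0.12, and without E18-ZZ its adjusted p was 0.064. In ENO1 and PKM every match lies within a CACGTG, of which ENO1 holds 2 and PKM 1.

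**Figure D5:**
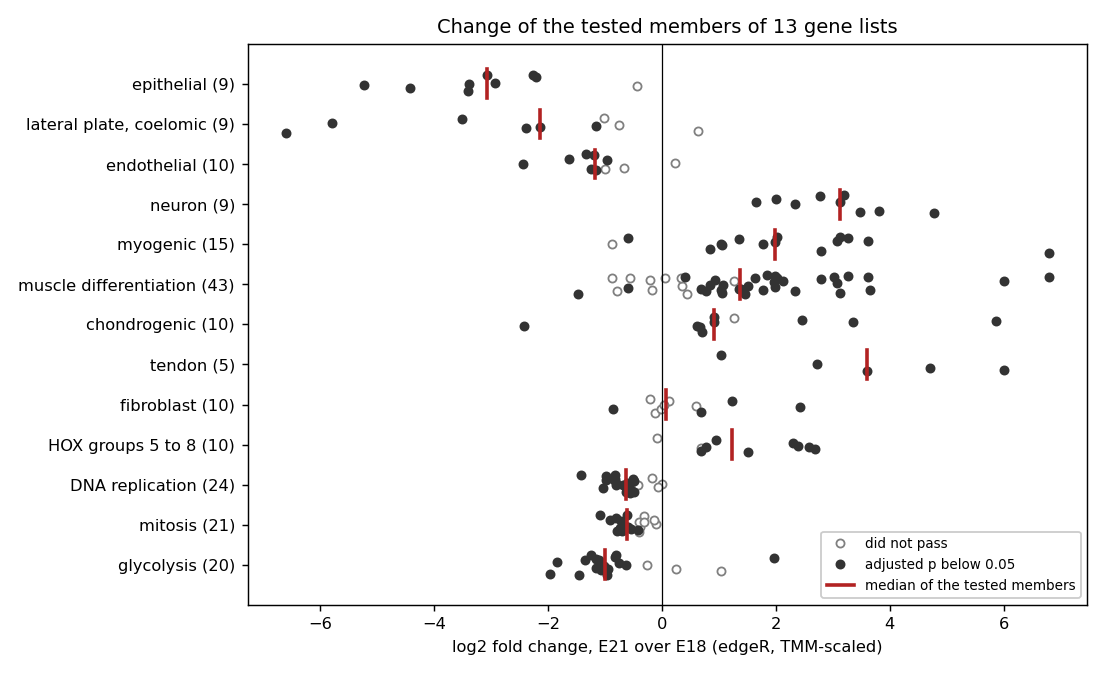
Log2 fold change, E21 over E18, of each tested member of 13 gene lists, with the number tested in brackets; filled points had an adjusted p below 0.05 and red bars are the medians. Epithelial and lateral plate members lie to the left, neuron, muscle and tendon members to the right, and glycolysis, DNA replication and mitosis members lie mostly between -2 and 0.

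Signalling genes changed in both directions in most pathways, beside the 14.1% of all genes that rose and 11.8% that fell. Many calls of the BMP and TGF-beta, WNT and IGF lists were lost in fits that left out 1 library, as were calls over all genes. In those fits, which share their libraries with the main fit, all 13 BMP and TGF-beta calls kept their direction. The same held for all 13 WNT calls and all 9 IGF calls. As every called gene had the same sign in both breeds, a kept direction was nearly fixed in advance and says little about these lists. In the BMP and TGF-beta list, 9 of 24 tested rose and 4 fell, and TGFB3, a ligand of cartilage and muscle, rose by 2.42 ± 0.27 on the log2 scale. In the retinoic acid list, 5 of 16 rose and 3 fell. ALDH1A2, the enzyme that makes retinoic acid in the early trunk, went from 44.1 and 29.8 CPM to 20.9 and 11.6 CPM, with an adjusted p of 0.16 without E18-ZZ, while DHRS3, which limits retinoic acid, rose from 22.8 and 22.9 CPM to 67.0 and 58.9 CPM. Of 26 WNT genes tested, 5 rose and 8 fell, and WIF1, a secreted WNT inhibitor, rose from 2.16 and 1.36 CPM to 8.52 and 9.62 CPM. In the FGF list 5 of 17 rose and none fell, among them FGF13, an intracellular family member of neurons, at 19.9 and 19.97 CPM and then 111 and 58.2 CPM. Of 14 IGF genes, 4 rose and 5 fell, and IGFBP5, a carrier of insulin-like growth factors, rose by 1.86 ± 0.13. Of 11 hedgehog genes, 1 rose and none fell.

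In the axon guidance list, 10 of 27 tested rose and 3 fell, with a median log2 fold change of 0.33, and without E18-ZZ 5 rose and 2 fell. EPHA3, an ephrin receptor, rose by 3.80 ± 0.16 on the log2 scale, from 2.88 and 3.91 CPM to 40.5 and 60.6 CPM, and DCC, the netrin receptor, by 3.69 ± 0.32. NTRK3, the receptor of neurotrophin-3, rose by 4.17 ± 0.37. In the limb and body wall list, 5 of 23 rose and 7 fell, and 3 of these 12 calls passed in every fit that left out a library. Among them were SHOX2, a homeodomain factor of limb and axial tissue, at 3.54 and 3.81 CPM and then 30.1 and 32.9 CPM, and ALX1, a factor of early mesenchyme, at 15.6 and 13.7 CPM and then 2.96 and 2.70 CPM. EPHA3, DCC, NTRK3, SHOX2 and ALX1 each passed in every fit that left out a library.

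Macrophage markers were at low levels at both stages. Of 10 tested, 8 rose and none fell, with a median log2 fold change of 2.75, and 5 rose without E18-ZZ and 4 without E18-DZ. C1QB, a subunit of complement C1q made by macrophages, had 20 and 0 UMIs in ZZ and DZ at E18, and 835 and 391 UMIs at E21. Barcodes with at least 3 macrophage markers were 0 of 8833 and 0 of 9291 at E18, which by a floor of 3 barcodes allows a share of up to 0.0340% and 0.0323%, and 0.263% and 0.122% at E21. With a limit of 5% of mitochondrial UMIs in place of 10%, 2 of the 10 could be tested and neither passed. When barcodes were removed by their Scrublet score, at a preset rate per library, 5 could be tested and 1 rose.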

How the data were processed

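Single cells of somites and myotome were captured with the 10x 3′ kit. The authors aligned reads to Sscrofa11.1 (Ensembl 98) with Cell Ranger, version 3.0.2 for the E18, E21 and E28 libraries and 3.1.0 for E16, and deposited raw UMI counts per gene and barcode, without normalisation. Counts were summed over the kept barcodes of each library. Of 21301 gene IDs, 14846 had a name in the files, 680 took one from a name table and 5775 had none. Stages were compared with edgeR 4.0.16 (R 4.3.3), using the quasi-likelihood test with breed as a block, TMM scaling, its filter on low counts and Benjamini-Hochberg adjustment at 0.05; 1 residual degree of freedom was moderated across genes. The study's methods state no test of stages over libraries. Levels are CPM of the plain library total, while fold changes use TMM-scaled totals. The E18 and E21 samples of a breed deviated together weakly (r = 0.123 over 5785 genes), and a breed marks the pair by label. Replicate libraries were not duplicates. On simulated data for this comparison (14781 genes), 46 of 100 2-fold and 95 of 100 4-fold changes were recovered, with 3 of 14581 unchanged genes called. The simulation changed only these genes, gave every gene the same spread and had no breed effect, whereas 3818 genes were called in the real libraries. Its rates may therefore not hold for them.

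For detection, each barcode was thinned to 2000 UMIs, shallower ones being left out, and carried a list when at least 3 of its markers had a UMI. Intervals cover counting error only. Cells were not clustered, and doublets were left in except in an alternative that removed the barcodes with the highest Scrublet scores, at 0.8% per 1000 barcodes; Scrublet's own threshold marked 0, 3, 320 and 1 barcodes in E18-ZZ, E18-DZ, E21-ZZ and E21-DZ. Genes were named as the 12 called genes with the largest log2 change each way among those with at least 20 CPM in both libraries of the higher stage, up to 4 called members of each of 52 lists with the largest change at 5 CPM or more there, and PAX3, PAX7, PAX1, MYF5, MYOD1, MYOG, TBX6, MESP2, SOX9, COL2A1, COL1A1 and COL3A1; further list members were named to complete a family or where they did not pass, after their values were seen. The members and lists were chosen with earlier results of these data known. Alternatives were other scalings, DESeq2 1.42.0, no filter, no block, all 8 libraries, other barcode limits, thinning and libraries left out. Some items are not reported here.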

Additional observations from a re-analysis of the deposited data

Results flagged for a closer look

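The change from E18 to E21 had opposite signs in the breeds, by at least 1 on the log2 scale each way, in 8 of the genes tested, of which 7 have a name and 3 are in a gene list used here. HES5, a Notch target of neural progenitors, changed by 1.29 in ZZ and by -1.67 in DZ. HOXC10 changed by -1.17 in ZZ and 1.53 in DZ, and HOXD9 by -1.05 in ZZ and 1.33 in DZ. Each breed has 1 library per stage, and the difference between breeds was not tested.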

How the results depend on the processing

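No gene called in the comparison was called in the opposite direction under another scaling, tool, filter, barcode limit or set of libraries, while 5 were without barcodes carrying other lists and 7 among fibroblast-marker barcodes. With 2 libraries a stage, an exact permutation test of a single value cannot go below p = 0.333. Scaling to library totals moved the median of all genes to 0.10 and the share of calls that were higher from 54.4% to 66.5% (2584 higher, 1304 lower). With no replicate block for breed, 1741 genes were higher and 1480 lower, HOX groups 5 to 8 had 5 higher in place of 8, and groups 9 to 13 had 1 in place of 3; all 8 libraries also gave 5 for groups 5 to 8. At an adjusted p of 0.01, 823 were higher and 487 lower. With 5% mitochondrial UMIs, 1126 genes were lower, 4 endothelial and 9 mitosis genes were lower, and 0 macrophage genes were higher (1 with the highest Scrublet scores removed). In the fit on fibroblast-marker barcodes, added after seeing the data, 1133 were higher and 1098 lower, 18 muscle differentiation genes were higher and 11 DNA replication genes lower.

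Leaving out 1 library gave 379 to 2299 higher and 179 to 2329 lower genes (519 and 265 without E18-DZ); lower epithelial 4 to 8, lateral plate 3 to 7, endothelial 1 to 8, timing 3 to 7, DNA replication 1 to 19, mitosis 0 to 19 and glycolysis 4 to 16; higher neuron 5 to 9, muscle differentiation 18 to 30, chondrogenic 2 to 8, HOX groups 5 to 8 4 to 9, groups 9 to 13 1 to 5, and macrophage 4 to 8.

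Differences in barcode share (points, E21 minus E18) with 2 markers were 10.7 chondrogenic, 5.55 myogenic, -24.1 epithelial, -3.12 endothelial, -22.9 erythroid, -2.76 dermomyotome and -3.80 lateral plate. Not thinned, they were 5.05 myogenic, -10.6 epithelial, -3.01 endothelial, -10.7 erythroid, -3.43 dermomyotome and -4.66 lateral plate. With 5% mitochondrial UMIs, they were 7.42 fibroblast, 5.85 myogenic, -0.182 endothelial, -0.428 dermomyotome, -0.979 lateral plate and 0.0185 macrophage. Both erythroid differences came mostly from E18-ZZ. With 2 markers the erythroid shares were 48.9% in E18-ZZ and 4.46% in E18-DZ, and 3.96% and 3.63% at E21. Not thinned, they were 20.8% in E18-ZZ and 2.6% in E18-DZ, and 0.81% and 1.24% at E21.

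Log2 values changed sign among fibroblast-marker barcodes for LFNG (0.113), SOX6 (-0.0982), MYL1 (-0.505), JAG1 (0.38), DKK3 (-0.0874), HOXB9 (-0.339), COL5A3 (-0.859), PBX3 (-0.137) and NGFR (-0.255); without barcodes carrying other lists for COL5A3 (-0.478), ENO2 (-0.0265) and NGFR (-0.097); and with 5% mitochondrial UMIs for DCN (-0.21) and APOA1 (-0.107). None of these values had an adjusted p below 0.05 in its own fit, and the cause of the sign changes was not tested.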

Other observations

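Of 14 tested genes of the amino acid stress response, 6 fell, 8 did not pass and none rose, and without either E18 library 1 fell. Their summed level was 595.8 and 588.7 CPM at E18 and 574.5 and 637.6 CPM at E21. ASNS, asparagine synthetase, went from 31.5 and 34.6 CPM to 15.4 and 14.7 CPM, a log2 fold change of -1.23 ± 0.13. Of 21 tested immediate-early genes, which also respond to tissue dissociation, 8 rose and 2 fell, and none of these 10 calls passed in every fit that left out a library. FOS was at 115 and 242 CPM and then 348 and 521 CPM; its call was lost without E18-ZZ (adjusted p = 0.26) and without E21-DZ (adjusted p = 0.13).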
